A study of Homo sapiens with 19 samples.

Results

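The 10 endocytic coat and dynamin genes studied here were followed across all 19 RNA-seq libraries of a study of isoform-specific RNA knockdown with Cas13d, an RNA-guided nuclease. They were CLTA, CLTB, PICALM, AP2M1, EPN2, DNM2, DNM1L, BIN1, ITSN1 and NBEA, taken from a list of names. That list was made with earlier results of these data known, so the shares of its exons and genes that passed are descriptions only. Annotated introns of these genes gave 63 candidate cassette exons of 37915 in the whole set. Of these 63 exons, 58 had at least 20 reads in a library, and 23 of 6857 exons tested passed the filters, which asked for 20 or more reads on average in a library and for inclusion between 2% and 98% when the 14 libraries were pooled. A pair of mutually exclusive exons, in DNM2, was among 237 pairs tested. All 10 genes were among 13393 genes tested on summed junction reads.

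A set of 14 libraries came from HUES66, a human embryonic stem cell line, treated with 1 µg/ml doxycycline in knockdown and control groups alike. The groups were control (3 libraries, genotype labelled wild type), RBFOX2 total knockdown (3), N-short isoform knockdown (4) and N-long isoform knockdown (4). They were collected at 24, 48 and 96 hr, and formed 4 library sets, namely replicates 1 and 2 at 24 hr, the 48 hr set and the 96 hr set. Replicate 1 at 24 hr had no control and replicate 2 at 24 hr had no total knockdown, so the total knockdown met a control in the same set only at 48 and 96 hr. Single libraries without a doxycycline label came from A375 melanoma cells (total, nuclear and cytoplasmic RNA), HEK293 cells of embryonic kidney origin and HUES66. Nothing in the labels says whether libraries of a group came from separate cultures, so p-values of the tests made here measure the spread between these libraries. The authors' p-values, quoted below, are from comparisons within 1 time. At 48 and 96 hr the labels give 1 library per group, so those p-values cannot measure a spread between libraries. At 24 hr the labels place the total knockdown and control libraries in different sets. All knockdowns were made in a single cell line, each with a single guide name in the labels.

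Clathrin-mediated endocytosis builds a coat of clathrin heavy and light chains on the plasma membrane through adaptors such as the AP2 complex, PICALM and epsins. BAR domain and scaffold proteins such as BIN1 and ITSN1 shape the neck of the pit and recruit dynamin, the GTPase that cuts the vesicle free. DNM1L is a dynamin relative that divides mitochondria and peroxisomes, and NBEA is a large BEACH domain protein of membrane traffic at synapses. RBFOX2 is a splicing regulator that binds GCAUG in RNA and changes the inclusion of nearby exons, many of them short exons that differ between brain, muscle and other tissues.

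The exons on which the results turn are short, and their sequences are given here so that the segment gained or lost can be read. Each is from a GENCODE release 29 transcript (GRCh38), 5′ to 3′ on the coding strand, with the exon in capitals and 12 bases of the exons next to it in that transcript in lower case. All 6 are coding exons. The transcript printed for the DNM1L 78-nt exon lacks the 33-nt exon. Inclusion of the 78-nt exon was measured in transcripts that hold the 33-nt exon. The DNM1L 33-nt exon is printed after the 78-nt exon, but its upstream junction was measured from the exon before the 78-nt exon.
PICALM 24-nt exon, chr11:85978070-85978093, minus strand: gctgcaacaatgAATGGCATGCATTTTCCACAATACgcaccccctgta
NBEA 63-nt exon, chr13:35645869-35645931, plus strand: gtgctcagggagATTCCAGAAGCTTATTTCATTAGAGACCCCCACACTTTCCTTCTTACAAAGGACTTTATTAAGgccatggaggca
DNM1L 78-nt exon, chr12:32737865-32737942, plus strand: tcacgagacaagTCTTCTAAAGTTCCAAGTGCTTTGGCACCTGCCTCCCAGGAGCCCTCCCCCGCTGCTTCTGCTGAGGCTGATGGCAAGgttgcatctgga
DNM1L 33-nt exon, chr12:32738264-32738296, plus strand: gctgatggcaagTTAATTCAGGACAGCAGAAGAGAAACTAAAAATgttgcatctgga
DNM2 12-nt exon, chr19:10808569-10808580, plus strand: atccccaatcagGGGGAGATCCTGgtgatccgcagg
AP2M1 6-nt exon, chr3:184180645-184180650, plus strand: atcaagagtcagCATCAGacaaaagaagag

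The PICALM exon holds GCATG once on the coding strand, and its reverse complement CATGC once in an overlapping position. Of 121 annotated cassette exons of 24 nt with a sequence, 1 held GCATG on the coding strand (0.826%), and the share was the same with both strands searched. The match is a description of these letters only.

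The DNM2 pair is shown because its members have the same length and code for alternative versions of 1 segment of the dynamin stalk. The exons are 139 nt each on the plus strand and match at 69.8% of positions, with 42 differing bases set in capitals.
DNM2 upstream exon, chr19:10796061-10796199: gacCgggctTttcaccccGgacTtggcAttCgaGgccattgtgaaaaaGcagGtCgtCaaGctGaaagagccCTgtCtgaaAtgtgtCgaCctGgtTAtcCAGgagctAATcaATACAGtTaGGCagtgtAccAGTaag
DNM2 downstream exon, chr19:10797380-10797518: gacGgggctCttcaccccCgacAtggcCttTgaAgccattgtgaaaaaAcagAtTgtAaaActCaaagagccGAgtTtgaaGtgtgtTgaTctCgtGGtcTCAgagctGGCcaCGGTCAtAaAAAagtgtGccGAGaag

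Tested exons of the 10 genes were divisible by 3 in 17 of 23 cases (73.9%), against 3191 of 6857 exons tested (46.5%), and had a median length of 78 nt against 106 nt. No test was made of this difference, because the genes were listed by hand.

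The junction tables held 6499183 to 27937149 spliced reads per library. RBFOX2 itself was measured first, in CPM, the junction reads of a gene scaled to the library's total, with TMM factors applied (normalised CPM). Controls read 126 to 134, N-short knockdown 114 to 124, N-long knockdown 77.9 to 90.9 and total knockdown 50.7 to 81.8, so that all 3 knockdown ranges lay below the controls, the N-short range closely. The log2 fold change against control was -0.82 ± 0.08 (SE) for total knockdown (edgeR quasi-likelihood, adjusted p = 8.6e-09), -0.57 ± 0.07 for N-long knockdown (adjusted p = 2.7e-05) and -0.06 ± 0.07 for N-short knockdown (adjusted p = 0.999). Summed reads cannot show the loss of an isoform that is a small part of the gene's reads. HUES66 libraries had 2593 to 4261 summed CPM of 5 pluripotency genes in the table, against 5.60 to 19.2 in A375 and HEK293, and A375 had 134 to 206 for 6 melanoma genes, against 9.56 in HEK293 and 38.8 to 75.7 in HUES66. A list of 4 kidney line genes did not separate the lines, with 37.9 to 374.65 in the A375 libraries, 296 in HEK293 and 60.6 to 102 in HUES66.

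In total knockdown, inclusion of the PICALM 24-nt exon and the NBEA 63-nt exon fell, that of the DNM2 12-nt exon rose, and the share of the upstream DNM2 exclusive exon fell. Of the 23 exons, 3 passed the test (1 higher, 2 lower), where 1.28% of all exons tested passed. In N-long knockdown 1 of 23 passed, the DNM1L 78-nt exon, which fell, against 0.467% of all exons. In N-short knockdown none of the 23 passed in edgeR or in limma, with 3 at an unadjusted p under 0.05, and 0.0146% of all exons passed in edgeR. Inclusion is the percent of inclusion reads (the mean of the 2 inclusion junctions) among inclusion and skipping reads, the fold change is a log2 change of the odds of inclusion, and the threshold is an adjusted p of 0.05.

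PICALM, or CALM, is a clathrin adaptor that binds phosphoinositides and sorts SNARE proteins. Its 24-nt exon was measured between the upstream exon and the 60-nt exon after it. Control inclusion was 80.5% at 24 hr (replicate 2), 95.8% at 48 hr and 88.1% at 96 hr. In total knockdown it was 67.7% at 24 hr (replicate 1), 70.9% at 48 hr and 60.6% at 96 hr, so all 3 knockdown libraries lay below all 3 controls. N-long knockdown gave 74.8%, 78.05%, 81.5% and 72.5% in the order of the sets, and N-short knockdown gave 84.5%, 82.2%, 94.9% and 82.5%. Each value rests on 71 to 119 reads.

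Within sets, total knockdown lowered PICALM exon inclusion by 26.2 ± 1.83 percentage points (SD, n = 2 sets), a log2 odds change of -2.10 ± 0.33 (SE) with an adjusted p of 6.6e-05 in edgeR's quasi-likelihood test. The authors' deposited table gave control minus total knockdown as 0.263 at 48 hr and 0.279 at 96 hr on a 0 to 1 scale. The authors' adjusted p-values at these times were 0.0019 and 0.041, from 1 library per group by the labels. At 24 hr the authors' table gave 0.143 with an adjusted p of 0.673, between libraries of different sets by the labels. N-long knockdown differed from control by -10.8 ± 7.27 points (n = 3 sets), a log2 odds change of -1.25 ± 0.31 with an edgeR adjusted p of 0.056, and was lower in 3 of 3 sets. It passed without the control or the N-long library of 24 hr replicate 2 (adjusted p = 0.012 for each). Total against N-long knockdown gave -0.85 ± 0.26, adjusted p = 0.28 in edgeR. N-long against N-short knockdown gave -0.94 ± 0.27, adjusted p = 0.22 in edgeR, and 0.047 without the N-long library of 24 hr replicate 2. The total knockdown call held in each of 6 fits that left out 1 library, and missed the threshold with limma on log2 ratios (adjusted p = 0.13).

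NBEA, or neurobeachin, had 2 tested exons, of 63 and 9 nt. Control inclusion of the 63-nt exon was 72.2%, 90.5% and 74.2% at 24, 48 and 96 hr. In total knockdown it was 37.0%, 41.4% and 17.6%, below every control. N-short knockdown ranged from 46.2% to 100.0% and N-long knockdown from 25% to 79.3%. The 37.0% was from replicate 1 at 24 hr, a set with no control. Every knockdown library of that set lay below every control, and N-short knockdown had its lowest value, 46.2%, there. The 24 hr total knockdown value therefore cannot tell knockdown from library set. Reads were few, with 17 to 31 per library.

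In total knockdown the NBEA 63-nt exon fell by 52.8 ± 5.27 points within sets (SD, n = 2), a log2 odds change of -3.06 ± 0.70 (edgeR adjusted p = 0.011). The authors' deposited table gave control minus total knockdown as 0.493 at 48 hr and 0.545 at 96 hr, with adjusted p-values of 0.047 and 0.041, and as 0.331 at 24 hr with an adjusted p of 0.484. The edgeR call was lost without the 48 hr total knockdown library (adjusted p = 0.35), the 96 hr control (0.21) or the 96 hr total knockdown (0.058), and with limma (0.41). N-long knockdown differed from control by -24.8 ± 21.1 points (n = 3 sets, edgeR adjusted p = 0.76). The 9-nt exon, chr13:35168987-35168995, was 16.7 ± 4.02 points higher in N-long knockdown than in control (n = 3 sets), which did not pass the test (edgeR adjusted p = 0.45).

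**Figure D1:**
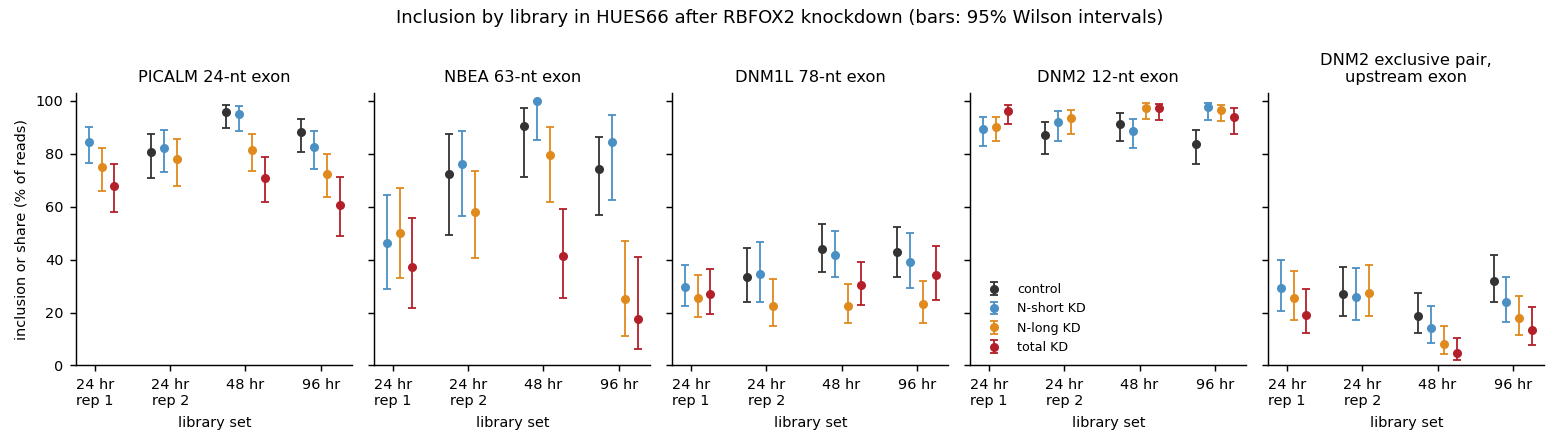
Percent inclusion (y axis) of 4 cassette exons, and the share of the upstream exon of the DNM2 pair, in each of the 14 HUES66 libraries by library set (x axis), with 95% Wilson intervals. Red total knockdown points of the PICALM exon (60.6% to 70.9%) lie below black control points (80.5% to 95.8%), and orange N-long points of the DNM1L exon (22.5% to 25.4%) lie below the controls (33.3% to 44.1%).

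The tested exons of DNM1L lie in its variable domain, which influences where the protein acts. The 78-nt exon was measured between the constitutive exon before it and the 33-nt exon after it, so it describes transcripts that hold the 33-nt exon. Control inclusion was 33.3%, 44.1% and 42.7% at 24, 48 and 96 hr. N-long knockdown gave 25.4%, 22.5%, 22.6% and 23.1%, all 4 below all 3 controls. N-short knockdown gave 29.6%, 34.4%, 41.8% and 39.0%, and total knockdown gave 27%, 30.4% and 34.2%.

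The DNM1L 78-nt exon fell in N-long knockdown by 17.3 ± 5.72 points within sets (SD, n = 3), a log2 odds change of -1.10 ± 0.23 (edgeR adjusted p = 0.0069). It was also lower in N-long than in N-short knockdown by 12.8 ± 6.48 points (n = 4 sets), -0.89 ± 0.21 with an edgeR adjusted p of 0.041, where 0.35% of all exons passed and 1 of 23 did so here. Total knockdown differed from control by -11.1 ± 3.68 points (n = 2 sets, edgeR adjusted p = 0.36), and total from N-long knockdown by a log2 odds change of 0.45 ± 0.23 (edgeR adjusted p = 0.83). In the latter contrast none of the 23 exons passed in edgeR or in limma, 3 had an unadjusted p under 0.05, and 0.496% of all exons passed in edgeR.

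The N-long call against control was lost without the 48 hr control (adjusted p = 0.17), the 48 hr N-long library (0.14), the 96 hr control (0.074) or the 96 hr N-long library (0.089), with the larger of the 2 inclusion junctions (0.064) and with limma (0.63). The call against N-short knockdown was lost without either 48 hr library (0.63 without N-short, 0.47 without N-long), either 96 hr library (0.12 and 0.31) or either replicate 2 library at 24 hr (0.12 and 0.053). It was also lost with the smaller inclusion junction (0.18), with no limits on inclusion (0.28), with time alone in place of library set (0.13) and with limma (0.70). The authors' deposited table has 2 entries for this exon with different neighbours. The entry with the lower p gave control minus N-long knockdown as 0.120, 0.185 and 0.194 at 24, 48 and 96 hr, and its adjusted p-values were 0.548, 0.382 and 0.497. The other entry of the authors' deposited table gave 0.165, 0.033 and 0.007 at these times, with adjusted p-values of 1.0 each.

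DNM2 is the dynamin found in most tissues. Its 12-nt exon had control inclusions of 87.1%, 91.3% and 83.6% at 24, 48 and 96 hr. Total knockdown read 96.2%, 97.1% and 93.9%, above every control. N-long knockdown ranged from 90.2% to 97.3% and N-short knockdown from 88.6% to 97.5%, and both overlapped the controls. Total knockdown was not the highest group at 96 hr, where N-short read 97.5% and N-long 96.6%, or at 48 hr, where N-long read 97.3%.

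The DNM2 12-nt exon rose by 8.03 ± 3.19 points in total knockdown (SD, n = 2 sets), a log2 odds change of 1.99 ± 0.49 (edgeR adjusted p = 0.022). That call was lost without the 24 hr total knockdown (adjusted p = 0.20), the 48 hr total knockdown (0.16) or the 96 hr control (0.43), with limma (0.47), with time alone in place of library set (0.064), and with the HUES66 wild type library as a control of replicate 1 at 24 hr (0.052). The authors' deposited table gave control minus total knockdown as -0.082, -0.067 and -0.101 at 24, 48 and 96 hr, with adjusted p-values of 0.685, 0.787 and 0.827. N-long knockdown gave 1.50 ± 0.40 (edgeR adjusted p = 0.096; 0.049 without the N-long library of 24 hr replicate 1 and 0.030 without the 48 hr control) and N-short knockdown 0.91 ± 0.39 (edgeR adjusted p = 1.00).

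Of the exclusive DNM2 exons, the upstream one took 27.1%, 18.6% and 32.04% of reads in controls at 24, 48 and 96 hr. In total knockdown it took 19.05%, 4.67% and 13.3%. Within the 48 and 96 hr sets the order from high to low was control, N-short, N-long and total knockdown, with 14.1% and 8.26% for N-short and N-long knockdown at 48 hr and 23.9% and 17.8% at 96 hr. Levels of the sets differ, so the 24 hr total knockdown value overlaps the 48 hr control.

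The upstream share fell by 16.4 ± 3.42 points in total knockdown (SD, n = 2 sets), a log2 odds change of -1.52 ± 0.27 (edgeR adjusted p = 9.2e-04), where 1.69% of the 237 pairs passed. The authors' deposited table gave control minus total knockdown as 0.133 at 48 hr and 0.172 at 96 hr, with adjusted p-values of 0.082 and 0.256. Without the 96 hr control the edgeR adjusted p was 0.096. The pair did not pass in N-short knockdown (-0.44 ± 0.22), N-long knockdown (-0.80 ± 0.22), N-long against N-short knockdown (-0.36 ± 0.21) or total against N-long knockdown (-0.72 ± 0.26). In edgeR these contrasts passed 0.0%, 0.0%, 0.0% and 0.422% of pairs, with 3, 5, 4 and 9 of 237 at an unadjusted p under 0.05.

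**Figure D2:**
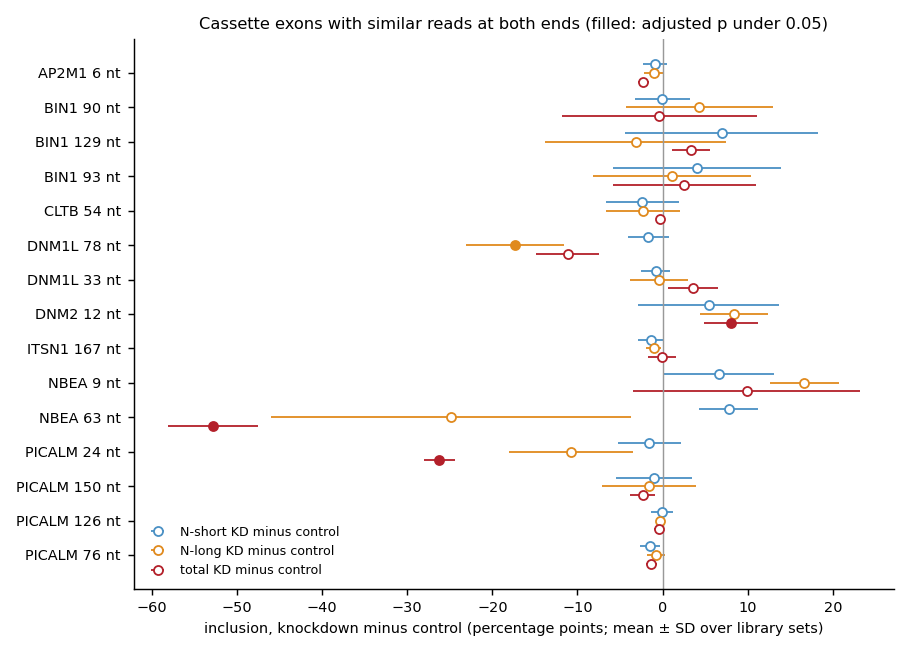
Difference in inclusion, knockdown minus control, in percentage points (x axis, mean ± SD over library sets) for the 15 tested exons with similar read numbers at both ends (y axis). Filled points passed the edgeR test, namely the PICALM 24-nt, NBEA 63-nt and DNM2 12-nt exons in total knockdown and the DNM1L 78-nt exon in N-long knockdown.

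Of the 23 tested exons, 8 had over 3 times as many reads at one end as at the other, and their inclusion is not described by library. These were the CLTA 38-nt, EPN2 171-nt and ITSN1 46-nt exons, the PICALM 60-, 83-, 105- and 129-nt exons, and an AP2M1 97-nt exon. None of the 8 passed against control in any knockdown in edgeR. The limit of 3 was chosen after the reads were seen. The other exons with similar ends, CLTB 54 nt, PICALM 76, 126 and 150 nt, BIN1 90, 93 and 129 nt, ITSN1 167 nt and DNM1L 33 nt, also passed in no knockdown against control.

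The AP2M1 6-nt exon, in the cargo-binding mu subunit of AP2, needs a separate reading. Its upstream junction was listed in 8 of 19 libraries and its downstream junction in 18 of 19. Among 10 exons of 1 to 7 nt with enough reads, 71.1% of library values with at least 20 reads on one side had 0 on the other, against 10.0% for exons of 28 nt or more. The upstream junction is also that of the 97-nt exon, which starts at the same base, so its reads alone cannot be split between both exons. Over the 19 libraries the downstream junction of the 97-nt exon had 4 reads, against 12297 for that of the 6-nt exon. All 14 knockdown and control libraries listed the downstream junction, and by that junction alone inclusion was 96.5% to 98.5%, which overlapped between all 4 groups.

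The following exons, some known from neurons or muscle, had few or no inclusion reads in these libraries. The list is not complete, and the BIN1 93-nt exon, for one, was included at 50.4% in the HUES66 wild type library. The clathrin light chain exons found in neurons had 8 inclusion reads of 8107 (CLTA 54 nt, 0.0987%), 11 of 8110 (CLTA 36 nt, 0.136%) and 21 of 1264 (CLTB 54 nt, 1.66%) over the 19 libraries. The 15-nt microexon of the ITSN1 SH3 region had 0 of 1911 reads, which allows a share of up to 0.157%, and the 45-nt BIN1 exon of muscle had 0 of 736, which allows up to 0.408%. A DNM2 30-nt exon had 0 of 2677 reads, which allows up to 0.112%. These limits cover counting error only and pool the 19 libraries, most of them HUES66. The limits were wider in A375 libraries and in HEK293. They were 6.0% in each for the ITSN1 exon, 13.0% and 27.3% for the BIN1 exon, and 0.580% and 2.86% for the DNM2 exon. Of the CLTA 36-nt reads, 10 of 1818 were in A375 libraries (0.55%) and 0 of 5115 in the 14 HUES66 knockdown and control libraries, which allows up to 0.0587%.

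Inclusion of the BIN1 129-nt and PICALM 150-nt exons was higher at 96 hr than at 48 hr. Short exons of PICALM, DNM1L and NBEA were lower at 96 hr. Of the 23 exons, 7 passed (3 higher and 4 lower at 96 hr), where 16.3% of all exons passed, and the DNM2 pair passed, where 8.86% of pairs did. Time and library set cannot be told apart here, because each time is 1 set of 4 libraries. The differences below are 96 hr minus 48 hr, over the 4 groups. With limma 2 of the 7 passed, the BIN1 129-nt and DNM1L 33-nt exons.

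The BIN1 129-nt exon, in a protein whose BAR domain bends membranes, read 28.2%, 30.0%, 22.2% and 27.8% at 48 hr in control, total, N-short and N-long knockdown, and 47.1%, 52.0%, 62.2% and 52.9% at 96 hr. All 96 hr values lay above all 48 hr values, by 26.5 ± 9.33 points (SD, n = 4 groups, edgeR adjusted p = 6.0e-04). The 24 hr libraries read 41.7% to 68.2% for the BIN1 129-nt exon, so the 48 hr set was the low one. The upstream DNM2 exon rose by 10.3 ± 2.13 points (edgeR adjusted p = 0.0020), higher in 4 of 4 groups. In the 24 hr libraries it took 19.05% to 29.3%, also above the 48 hr values. The PICALM 150-nt exon rose by 8.09 ± 3.79 points, with 20.8% to 26.9% at 48 hr and 28.2% to 34.6% at 96 hr (edgeR adjusted p = 0.031). That call was lost without the 48 hr total, N-short or N-long knockdown library or the 96 hr control, total or N-short library (adjusted p = 0.055 to 0.14).

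The other 4 exons described by library were lower at 96 hr. The PICALM 24-nt exon fell by 9.88 ± 1.97 points (edgeR adjusted p = 0.012) and was lower in 4 of 4 groups. The call was lost without the 48 hr N-short library (adjusted p = 0.055) or the 96 hr N-long library (0.0502). The DNM1L 33-nt exon was 96.8% to 98.3% at 48 hr and 88.8% to 95.8% at 96 hr (edgeR adjusted p = 0.0044), and the ranges did not overlap. Both NBEA exons fell, the 9-nt exon by 16.7 ± 13.0 points (edgeR adjusted p = 0.012) and the 63-nt exon by 27.5 ± 18.2 points (edgeR adjusted p = 0.018). The first was lost without either total knockdown library (adjusted p = 0.11 without 48 hr, 0.097 without 96 hr). The second was lost without the 48 hr N-short (0.059) or N-long library (0.075), or the 96 hr total (0.055) or N-long library (0.18). For the PICALM 24-nt and NBEA 63-nt exons the 48 hr library was the highest of each group, 24 hr libraries included. The NBEA 9-nt exon read 55.0% to 72.1% at 24 hr, 68.0% to 87.9% at 48 hr and 52.3% to 73.3% at 96 hr. The CLTA 38-nt exon also passed (edgeR adjusted p = 0.033), with 7200 reads at one end and 4 at the other over the 19 libraries. It was lost in 6 of 8 fits that left out 1 library (adjusted p up to 0.16).

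**Figure D3:**
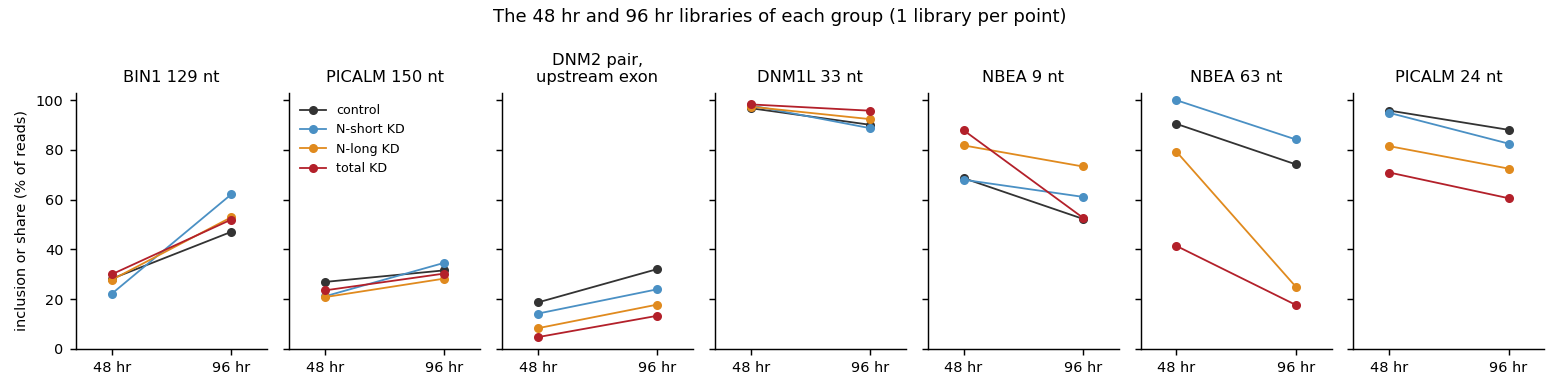
Percent inclusion (y axis) of 6 cassette exons and the share of the upstream DNM2 exon at 48 and 96 hr (x axis), 1 line per group and 1 library per point. The 4 lines of BIN1 129 nt all rise (22.2% to 30.0% at 48 hr, 47.1% to 62.2% at 96 hr), and the 4 lines of PICALM 24 nt all fall.

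Short exons of DNM1L and DNM2 differed between the single libraries of the cell lines. There was 1 library for each line and fraction, so no difference has a replicate check, and the 95% Wilson intervals cover counting error only. A difference was counted where the intervals did not overlap and inclusion differed by at least 10 points, among exons with similar ends and at least 20 reads in both libraries. A375 total RNA against HUES66 gave 4 of 9 such exons (8.46% of all exons compared), HEK293 against HUES66 gave 5 of 11 (9.12%), and A375 total RNA against HEK293 gave 4 of 9 (4.7%). These counts include the AP2M1 6-nt exon, and without it they were 3 of 8, 4 of 10 and 3 of 8.

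The AP2M1 6-nt exon cannot be compared between all 3 lines, because A375 total RNA and HUES66 listed only its downstream junction and HEK293 only the upstream one. By the downstream junction inclusion was 54.1% in A375 total RNA (interval 48.4 to 59.8) and 97.3% in HUES66 (96.4 to 97.9), and in HEK293 the upstream junction gave 83.6% (79.7 to 86.9). By the junction with fewer reads, which was at 0 in each of these libraries, no difference was seen. The DNM1L 33-nt exon was at 47.3% in A375 total RNA (36.3 to 58.5) and 43.7% in HEK293 (33.7 to 54.1), which overlap, and at 93.4% in HUES66 (88.9 to 96.2). The DNM1L 78-nt exon, measured beside the 33-nt exon, differed from HUES66 by -17.5 points in A375 total RNA and -11.8 in HEK293, with overlapping intervals. By all junctions at its ends against all spanning junctions these were -21.3 and -21.2, with intervals apart. The DNM2 12-nt exon was at 72.5% in A375 total RNA (63.2 to 80.3), 16.1% in HEK293 (10.4 to 24.0) and 89.3% in HUES66 (84.9 to 92.5), so the 3 lines stood apart. The upstream DNM2 exclusive exon had the opposite order for HUES66, with 80.0% in A375 (71.1 to 86.7), 68.8% in HEK293 (60.3 to 76.1) and 35.4% in HUES66 (28.7 to 42.8). The A375 and HEK293 intervals of that exon overlap.

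The PICALM 24-nt exon read 71.8% in A375 total RNA (63.9 to 78.6), 51.0% in HEK293 (41.2 to 60.8) and 83.9% in HUES66 (78.3 to 88.2), and the A375 and HUES66 intervals overlap. The PICALM 150-nt exon, chr11:85990250-85990399, was higher in A375 at 48.4% (40.7 to 56.2) than in HEK293 at 25% (18.3 to 33.2) or HUES66 at 22.1% (17.6 to 27.4). The NBEA 9-nt exon was at 23.3% in HEK293 (11.8 to 40.9) and 58.9% in HUES66 (49.7 to 67.6). The NBEA 63-nt exon had 37 inclusion and 18 skipping reads in HUES66 and no inclusion reads in A375 (22 skipping reads over 3 libraries) or HEK293 (3), so its absence there was not detectable at this depth below 13.6% in A375. The BIN1 93-nt exon, chr2:127068163-127068255, in the BAR domain, was at 50.4% in HUES66 (41.9 to 58.9) and had 0 of 18 reads in A375 and 0 of 4 in HEK293, which in A375 allows up to 16.7%.

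Nuclear and cytoplasmic RNA of A375 were compared by the same rule. A list of 4 nuclear RNAs summed to 119 CPM in the nuclear and 14.8 in the cytoplasmic library. Of 9 exons with similar ends, 1 met the rule, against 3.71% of all exons compared. That 1 was the AP2M1 6-nt exon, whose upstream junction was not listed in the nuclear library, so that without it the count was 0 of 8. By the downstream junction it read 53.9% in nuclear RNA (46.8 to 60.8) and 54.8% in cytoplasmic RNA (52.0 to 57.6), which overlap. The DNM2 12-nt exon was at 67.1% and 64.5%, the DNM1L 33-nt exon at 44.4% and 37.4%, the PICALM 24-nt exon at 60.4% and 65.0%, and the upstream DNM2 exclusive exon at 78.4% and 80.4%, each pair with overlapping intervals.

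**Figure D4:**
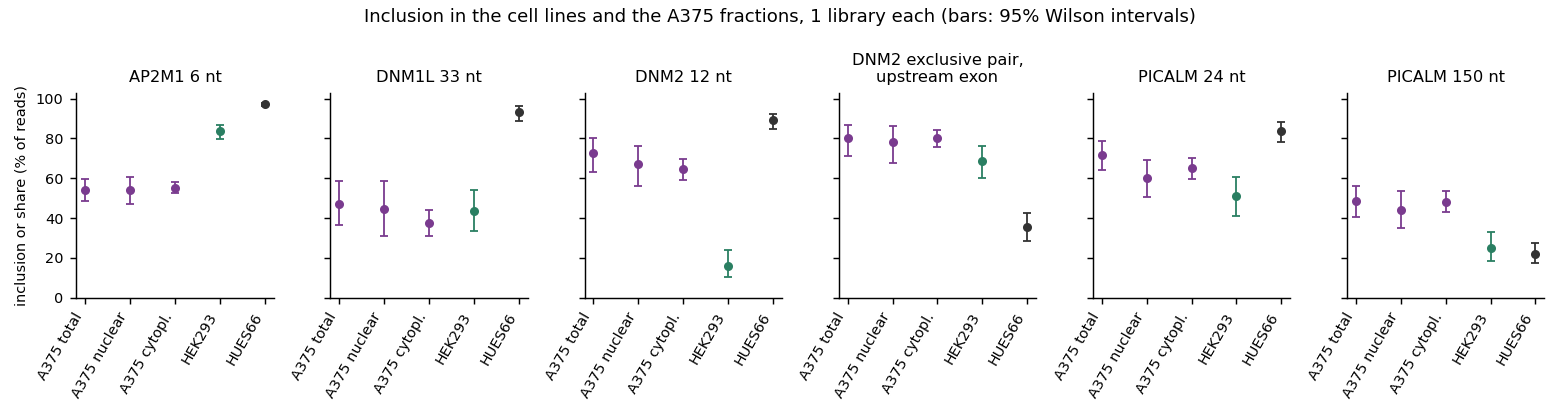
Percent inclusion (y axis) of 5 cassette exons and the share of the upstream DNM2 exon in single libraries (x axis) of HUES66, HEK293 and the 3 RNA fractions of A375, with 95% Wilson intervals. The 3 A375 fractions have overlapping intervals in each panel, and the DNM2 12-nt exon of HEK293 (16.1%) lies apart from A375 and HUES66. The AP2M1 panel plots the junction with more reads, which is the upstream one in HEK293 and A375 cytoplasmic RNA and the downstream one in the others.

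Gene reads passed the test for none of the 10 genes in any knockdown against control. In bulk RNA, fewer cells of a type and less RNA per cell cannot be told apart. In total knockdown 0 of 10 passed in edgeR (4 at an unadjusted p under 0.05, where 2.28% of all genes passed), and 1, ITSN1, passed in DESeq2. None passed in N-short knockdown (0 unadjusted, 0.00747% of all genes) or N-long knockdown (0 unadjusted, 0.0224%) in edgeR or DESeq2. None passed in N-long against N-short knockdown (1 unadjusted, 0.0149%) in either tool.

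ITSN1, a scaffold that links coat proteins with dynamin and actin regulators, had 274 to 305 normalised CPM in controls and 231 to 276 in total knockdown, which overlap. Its log2 fold change was -0.14 ± 0.04 (SE, edgeR adjusted p = 0.052; DESeq2 adjusted p = 0.042), and the edgeR adjusted p was 0.035 without the 96 hr total knockdown. NBEA was the 1 gene of 10 that passed in total against N-long knockdown, where 2.08% of all genes passed. It read 181, 220 and 220 in total knockdown and 196 to 272 in N-long knockdown, a log2 fold change of -0.15 ± 0.04 (edgeR adjusted p = 0.020), lower in 3 of 3 sets. That call was lost without the 48 or 96 hr total knockdown (adjusted p = 0.068 and 0.21) or the 24 hr replicate 1 or 96 hr N-long library (0.088 and 0.085), and with time alone in place of library set (0.78). The replicate 1 libraries at 24 hr had 181 to 196 normalised CPM of NBEA in the 3 knockdown groups, the set having no control, below the 220 to 272 of all other sets.

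Both clathrin light chains and AP2M1 were higher at 96 hr than at 48 hr, in 4 of 4 groups each, where 59.6% of all genes passed in either direction. For both light chains the 48 hr set was the lowest. At 24 hr CLTA had 127 to 141 normalised CPM and CLTB had 12.4 to 18.4. CLTA rose from 104 to 114 normalised CPM at 48 hr to 134 to 145 at 96 hr, a log2 fold change of 0.36 ± 0.04 (edgeR adjusted p = 2.7e-09). AP2M1 rose from 381 to 434 to 482 to 549, a log2 fold change of 0.32 ± 0.04. The highest AP2M1 value of the 14 libraries, 574 in total knockdown, lay above both ranges and so was from 24 hr. CLTB rose from 10.2 to 11.8 to 12.3 to 15.8, a log2 fold change of 0.34 ± 0.10 (edgeR adjusted p = 0.0052; 0.054 without the 48 hr control). The other 7 genes did not pass. NBEA (0.07 ± 0.03, edgeR adjusted p = 0.071) passed without the 48 hr N-short library (0.021) or the 96 hr total knockdown library (0.019). With library size in place of TMM factors, 6 of 10 passed, with DNM1L, DNM2 and ITSN1 lower at 96 hr.

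Between cell lines, in CPM without TMM factors, BIN1, ITSN1, EPN2, AP2M1 and NBEA were lower in A375 and HEK293 than in HUES66. CLTB and PICALM were higher, and CLTA, DNM2 and DNM1L slightly so. BIN1 had 4.82 CPM in A375 total RNA, 10.6 in HEK293 and 54.3 in HUES66, and the A375 to HUES66 ratio was 0.0888 (exact 95% interval 0.0625 to 0.122). ITSN1 read 53.6, 173 and 245 in the same order, EPN2 14.5, 16.8 and 30.6, AP2M1 291, 321 and 516, and NBEA 88.1, 109 and 192, all lowest in A375 total RNA and highest in HUES66, though the A375 and HEK293 intervals of EPN2 include an equal level. CLTB, at 37.5, 35.2 and 14.01, and PICALM, at 425, 303 and 209, were lowest in HUES66. The difference was smaller for CLTA, at 167, 165 and 134, DNM2, at 249, 245 and 204, and DNM1L, at 234, 270 and 197. Their A375 to HUES66 ratios were 1.25 (1.17 to 1.33), 1.22 (1.16 to 1.29) and 1.18 (1.12 to 1.25). These lay above 60.3%, 59.7% and 57.9% of the genes compared. With TMM factors their HEK293 to HUES66 log2 ratios fell from 0.30, 0.27 and 0.46 to 0.10, 0.06 and 0.25.

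In A375, NBEA had 135 CPM in nuclear and 29.5 in cytoplasmic RNA, a ratio of 4.60 (4.14 to 5.11), above 89.0% of the 12759 genes compared. CLTA (ratio 0.464), CLTB (0.413), AP2M1 (0.508) and BIN1 (0.293, from 15 nuclear reads) were lower in nuclear RNA, with intervals below 1. The median log2 ratio of all genes was -0.11. The ratios of EPN2, DNM1L, DNM2, PICALM and ITSN1 lay between 0.794 and 1.21, and the interval of EPN2 included 1. Each fraction is 1 library, so these are ratios of 2 libraries with counting error only.

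**Figure D5:**
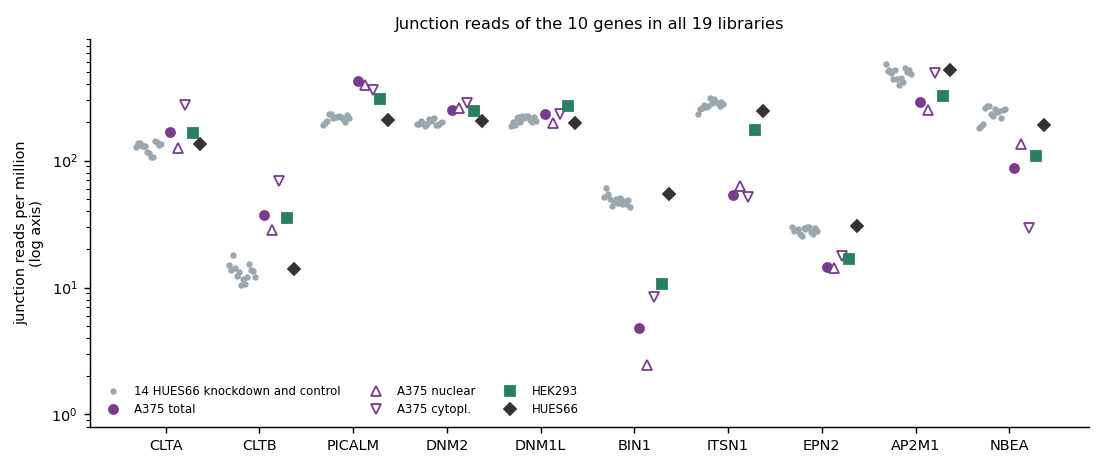
Junction reads in CPM (y axis, log scale) of the 10 genes (x axis) in the 14 HUES66 knockdown and control libraries (grey), A375 fractions (purple), HEK293 (green) and HUES66 (black), to be compared within a gene only. BIN1 spans 2.47 in A375 nuclear RNA to 60.3 in a HUES66 library, and DNM2 stays between 187 and 282.

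A list of 70 other genes of the same machinery was set beside the 10, of which 69 were tested. In total knockdown against control 1 was higher and 2 were lower, with a median log2 fold change of -0.02 against 0.00 for all genes. EPS15, a scaffold of the early coat, rose by 0.16 ± 0.04 (edgeR adjusted p = 0.027). LRBA, a relative of NBEA, fell by 0.14 ± 0.03 (edgeR adjusted p = 0.0082), and OPA1, which fuses mitochondrial inner membranes, fell by 0.15 ± 0.04 (edgeR adjusted p = 0.026). LRBA and OPA1 were also lower in total than in N-long knockdown. None of the 69 passed in N-short knockdown, N-long knockdown or their contrast in edgeR, with 3, 6 and 2 at an unadjusted p under 0.05.

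At 96 against 48 hr 28 of the 69 genes were higher and 17 lower, a share near the 59.6% of all genes that passed. By role, the 96 hr against 48 hr contrast called 11 higher and 7 lower of 26 heavy chain and adaptor genes, 5 and 5 of 17 membrane bending and scission genes, 8 and 2 of 14 uncoating and kinase genes, 3 and 2 of 7 mitochondrial fission and fusion genes, and 1 and 1 of 5 relatives of NBEA. DNM1, the dynamin of neurons, fell by 0.94 ± 0.06 on the log2 scale, and HSPA8, the chaperone that strips clathrin from vesicles, rose by 0.77 ± 0.03. Of 60 tested exons in 28 of these genes, none passed in any knockdown contrast in edgeR (0 to 5 unadjusted), and 5 were higher and 4 lower at 96 hr than at 48 hr, where 16.3% of all exons passed. The 12-nt DNM1 exon, chr9:128239985-128239996, fell by 27.8 ± 9.99 points between these times (SD, n = 4 groups, edgeR adjusted p = 0.0044).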

How the data were processed

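Per the labels, the 19 libraries hold ribosome-depleted RNA of human cell lines. The authors deposited 1 table per library of splice junctions with raw read counts, not normalized. They used STAR 2.7.1 and SAMtools 1.9 on hg38, per the submitters' processing notes. In the authors' 9 comparison tables the difference in inclusion level (-1 to 1) is control minus knockdown and comes with the authors' p-values, per the file headers, and 69 per-library columns of these were not used.

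Introns were annotated with GENCODE 29. Gene reads are sums over annotated junctions. Exons up to 1000 nt were fitted as paired inclusion and skipping reads. The quasi-likelihood F-test of edgeR 4.0.16 (R 4.3.3), with TMM factors for genes only, took the 14 doxycycline libraries with terms for library set and knockdown, with Benjamini-Hochberg adjustment over all features. Same-set libraries had residual correlations of 0.327 to 0.766, so set was kept as a block. On simulated counts for total knockdown against control, 75.5% of 200 exons with a log2 odds change of 2 among 6857 exons were recovered. For genes it was 82.5% of 200 with a log2 change of 1 among 13196. The simulated counts held no shift between library sets. Changed exons were drawn from intermediate inclusion levels, and the DNM2 12-nt exon, at 92.5% when pooled, lay outside that range. Alternatives were limma 3.58.1, DESeq2 1.42.0, other filters, junction choices and left-out libraries, and the larger junction and the limit of 3 on unequal ends were chosen after seeing the data. Single libraries have 95% Wilson or exact intervals, which cover counting error only, and a share of 0 is limited by 3 counts.

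The named genes were the 10 members, their tested exons and 70 pathway genes. The genes and lists were chosen with earlier results of these data known. Intron sequence was not analysed here.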

Additional observations from a re-analysis of the deposited data

Results flagged for a closer look

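Among 52 sets of 4 libraries examined for a lone value, 3 had 1 library apart from the others by Dixon's test, and chance flags about 1 in 20. The BIN1 129-nt exon was included at 22.2% in the 48 hr N-short knockdown library, against 62.2% to 68.2% in the other 3 N-short libraries. All 4 groups were at 22.2% to 30.0% at 48 hr. PICALM had 209.8 normalised CPM in the N-long knockdown library of 24 hr replicate 1, against 217.9 to 218.3 in the others. DNM1L had 203 in the N-short knockdown library of 24 hr replicate 1, against 220 to 223.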

How the results depend on the processing

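No change that passed its test reversed in the alternatives run. Some differences between single libraries with overlapping intervals changed sign with the junction used, such as the DNM1L 33-nt exon, nuclear minus cytoplasmic, at 7.01 points by the mean of both junctions and -0.283 by the smaller. Leaving out 1 library gave 1 to 3 of these exons called in total knockdown, 0 to 3 in N-long, 0 to 1 in N-short, in N-long against N-short and in total against N-long knockdown, and 3 to 7 at 96 against 48 hr. It gave 0 to 1 DNM2 pair in total knockdown, 0 to 1 genes in total knockdown and in total against N-long knockdown, and 2 to 4 genes at 96 against 48 hr. With limma 0 exons were called in total, N-long, and N-long against N-short knockdown, and 2 at 96 hr. With the minimum at 10 reads, calls were 4 in N-long, 1 in N-short and 1 in total against N-long knockdown. With no limits on inclusion they were 2, 1 and 1, and 0 in N-long against N-short. With the smaller junction they were 3, 1 and 1, and with the larger junction 3, 1 and 1 (chosen after seeing the data). The added calls in N-short and in total against N-long knockdown were AP2M1 exons with an unevenly listed junction. An AP2M1 exon of this kind was also among the N-long calls in each of these settings, beside the DNM2 12-nt and PICALM 24-nt exons in some. It was also among the total knockdown calls with the smaller junction. With the HUES66 wild type library as control, N-long calls were 2. Without the replicate block (time point alone), N-long against N-short called 0 exons, and total against N-long knockdown 0 genes. It changed no other count of these 10 genes' features by over 1.5 times. DESeq2 called 1 gene in total knockdown, and library size without TMM 6 at 96 hr. Counts over all features also moved by over 1.5 times. In total knockdown limma called 13 exons (88 in edgeR, 39 without the 48 hr total knockdown and 46 without the 96 hr control), and genes numbered 305, 62 without the block, 549 with the HUES66 wild type control, and 162 to 190 without the 48 hr control, 48 hr total knockdown or 96 hr control. In N-long knockdown exons numbered 32, 0 with limma, 21 without the block and 18 without the 48 hr N-long library, and genes 3, with 16 unfiltered, 0 without the block, 1 in DESeq2 and 1 without the 48 hr control. In N-short knockdown exons numbered 1 and genes 1, with alternatives at 0 to 5 and 0 to 4. In N-long against N-short knockdown exons numbered 24, 0 with limma, 14 without the block, and 11 or 12 without the 48 hr N-short, 48 hr N-long or 96 hr N-long library, and genes 2, with 17 unfiltered and 0 without the block. In total against N-long knockdown exons numbered 34, 1 with limma, 17 without the block and 11 without the 48 hr total knockdown, and genes 278, 40 without the block and 149 to 164 without the 24 hr replicate 1 N-long, 48 hr total or 48 hr N-long library. At 96 against 48 hr exons numbered 1121 and 728 with no limits on inclusion. Pairs called there numbered 21, and 13 without the 96 hr control. Depth limits exons such as the NBEA 63-nt exon, with 17 to 31 reads per library.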
